A study of Mus musculus with 12 samples.

Results

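The Gadd45 family consists of 3 small stress-induced genes in the mouse, Gadd45a (NM_007836), Gadd45b (NM_008655) and Gadd45g (NM_011817). Its members were taken as every probe, other than control spots, whose RefSeq accession maps to one of these symbols. This gave 4 of the 41174 probes and 3 of the 16535 genes named on the array, with 1 probe each for Gadd45a and Gadd45g and 2 for Gadd45b. The family was picked with its levels on these arrays in the 4 groups known, so the levels and differences of its members are given as a description, without a test.

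RNA of esophagus and liver was measured on 12 arrays in 4 groups of 3, esophagus TG, esophagus CTR, liver TG and liver CTR. TG mice carried Col1a1tetO-Nanog/+;Rosa26rtTA/+, a doxycycline-dependent Nanog transgene at the Col1a1 locus with the rtTA activator at Rosa26, a locus active in most cell types, and CTR mice were Col1a1+/+;Rosa26rtTA/+, with the activator alone. Both genotypes were males of 8 months on a mixed 129Sv/C57BL6 background, and both drank doxycycline at 0.2 mg/ml in 7.5% sucrose for 48 h, so the drug and the activator are shared by all groups. Sample numbers link the esophagus and the liver of 6 animals, and organ cannot be told apart from RNA extraction, since esophagus was extracted with a fibrous tissue kit and liver with Trizol and a column. The series title places Nanog, a transcription factor of pluripotent embryonic cells, in the setting of mitosis in adult layered epithelia.

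Gadd45 proteins have no enzymatic activity and act by binding others. They bind Pcna and Cdkn1a, hold back the kinase complex of Cdk1 and cyclin B that drives entry into mitosis, switch on the kinase Map3k4 upstream of p38 and JNK, and have been linked to active DNA demethylation. Gadd45a is a classical target of p53, Gadd45b is induced by NF-kappaB and TGF-beta and in regenerating liver, and Gadd45g answers cytokines and is often silenced in tumours, liver cancer among them.

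The 250 bases upstream of each gene's start, from RefSeq on GRCm38.p6, are shown because the 3 genes behaved differently in these organs although their promoters share elements. Capitals mark matches to 4 motifs, searched on both strands: the octamer ATGCAAAT bound by POU factors, the CCAAT box (CCAAT), the E-box CACGTG and the TATA box (TATAAA). The genes lie at chr6:67035096-67037407 (Gadd45a), chr10:80930091-80932204 (Gadd45b) and chr13:51846675-51848475 (Gadd45g). The stretches shown are chr6:67037408-67037657 on the minus strand for Gadd45a, chr10:80929841-80930090 on the plus strand for Gadd45b and chr13:51846425-51846674 on the plus strand for Gadd45g, each written 5′ to 3′ along the gene.
Gadd45a: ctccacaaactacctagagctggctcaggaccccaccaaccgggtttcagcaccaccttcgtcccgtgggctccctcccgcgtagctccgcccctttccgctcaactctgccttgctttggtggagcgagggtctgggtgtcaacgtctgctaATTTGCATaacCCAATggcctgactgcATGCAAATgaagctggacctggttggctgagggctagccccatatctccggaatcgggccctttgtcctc
Gadd45b: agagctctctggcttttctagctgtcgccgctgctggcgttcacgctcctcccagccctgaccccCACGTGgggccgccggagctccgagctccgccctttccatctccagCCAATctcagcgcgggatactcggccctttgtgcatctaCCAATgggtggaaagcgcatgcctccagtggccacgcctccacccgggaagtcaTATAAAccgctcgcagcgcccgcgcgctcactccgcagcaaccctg
Gadd45g: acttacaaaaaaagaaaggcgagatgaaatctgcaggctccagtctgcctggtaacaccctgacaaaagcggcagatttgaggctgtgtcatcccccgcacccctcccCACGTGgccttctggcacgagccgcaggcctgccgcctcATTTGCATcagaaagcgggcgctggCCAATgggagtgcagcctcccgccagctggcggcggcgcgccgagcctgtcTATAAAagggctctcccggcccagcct

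The octamer occurred in the windows of Gadd45a, with 2 matches, and Gadd45g, with 1 match, against 1.6% of the 32851 promoter windows of the same length. CCAAT occurred in all 3 windows, against 33.85% of windows, and was the only one of these motifs shared by the 3 genes. CACGTG and TATAAA each occurred in Gadd45b and Gadd45g, against 6.02% and 12.37% of windows. The cyclic AMP element TGACGTCA was found in 0 of the 3 windows, against 1.55% of all windows. The motifs do not overlap each other in these windows, and a match describes letters only.

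Levels are given as log2 signal relative to the array's 75th percentile, so 0 is the 75th percentile of its spots and 1 unit is a doubling. On an array 56.4% to 81.8% of the probes were well above background, and all 4 Gadd45 probes were so on all 12 arrays. Across genes, the correlation between arrays was 0.942 to 0.986 within a group and 0.776 to 0.817 between the organs. The 9 markers of esophageal squamous epithelium were all well above background on the 6 esophagus arrays, and the 7 hepatocyte markers on the 6 liver arrays. Nanog itself was not well above background anywhere, with levels of -8.27 to -7.87 in TG and -8.47 to -8.07 in CTR esophagus, so induction of the transgene was not seen, and whether the probe matches the transgene's RNA is not known here. The clock gene Per2 was at -1.77 in liver TG2 and -1.64 in liver CTR1, while the other 4 livers had 0.63 to 1.23. Among the esophagi, TG1 and TG2 had the lowest Per2, at -3.01 and -2.55, against -0.80 on TG3 and -0.50 to 0.17 on the CTR arrays. In limma 0 of 23208 genes passed an adjusted p under 0.05 for TG against CTR in esophagus, with 928 at an unadjusted p under 0.05, and 0 of 21247 in liver, with 1763. The count was 7 without esophagus TG2, 18 without liver TG2 and, chosen after seeing the data, 30 without livers TG2 and CTR1. The p-values behind these counts compare 3 mice with 3 mice.

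Gadd45g was lower in TG than in CTR on all arrays of both organs. In liver it was at 2.85, 3.63 and 2.21 in TG1, TG2 and TG3, against 4.48, 4.38 and 4.70 on CTR1, CTR2 and CTR3. The TG livers were spread over more than 1 unit, with TG3 lowest and TG2 highest, while the CTR livers lay close together, and the groups did not overlap. Liver TG3 also stood apart as an array, with 81.8% of its probes well above background against 56.4% to 69.6% on the other livers. Its median squamous marker level was -1.83, against -5.48 to -4.07 on the other livers, and its median skeletal muscle marker level -3.06, against -7.16 to -5.82. The medians of heart muscle (-2.22), airway (-1.93) and fat markers (-2.93) were also highest on TG3 among the livers. Their part in the Gadd45g value was not tested, and without TG3 the liver difference of Gadd45g was -1.28. Over all 6 livers the means were 2.90 ± 0.71 in TG and 4.52 ± 0.16 in CTR (SD, n = 3 each), a difference of -1.62 (SE 0.30), or a level 3.08-fold lower in TG. In esophagus Gadd45g was at 4.22, 4.55 and 4.28 in TG1, TG2 and TG3, against 4.77, 5.18 and 5.16 on CTR1, CTR2 and CTR3. Here the 3 TG values lay within a narrow band just below the lowest CTR value, that of CTR1. The means were 4.35 ± 0.17 in TG and 5.04 ± 0.23 in CTR (SD, n = 3 each), a difference of -0.68 (SE 0.31), or 1.61-fold lower in TG. In whole organs, fewer cells that make a transcript and less of it per cell cannot be told apart.

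All 3 TG values below all 3 CTR values were found in 2.81% of the genes tested in liver and in 5.75% of those in esophagus. Both at once were found in 38 of the 20017 genes tested in both organs, which is 0.19%. Gadd45g was one of these, and nothing is read from the share because the gene was chosen with these levels known. In liver 0.104% of the genes tested had a difference as low as that of Gadd45g or lower, against 4.07% in esophagus. For the same reason nothing is read from these ranks. The median over all genes was 0.13 in liver and 0.0057 in esophagus, and relative to it Gadd45g was at -1.75 and -0.69. The liver median was 0.02 after quantile normalization.

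**Figure D1:**
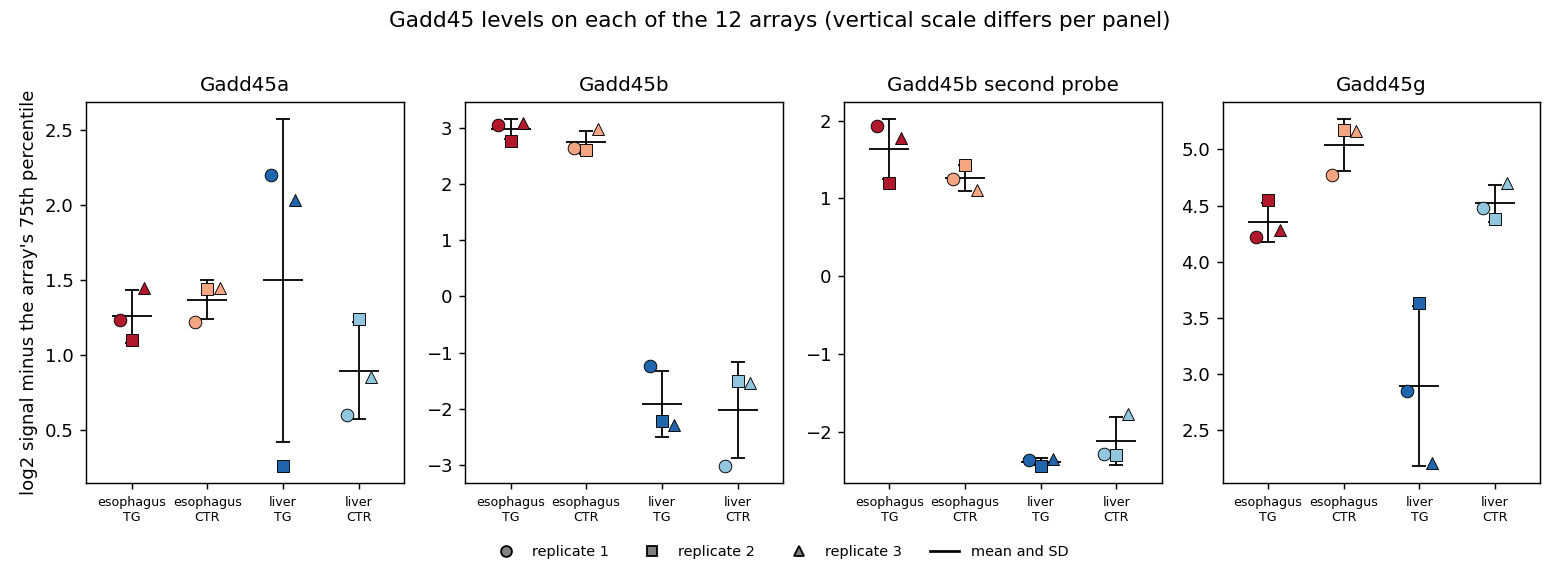
Levels of the 4 Gadd45 probes on each array (log2 signal minus the array's 75th percentile), in the order esophagus TG, esophagus CTR, liver TG and liver CTR; symbols are replicates, lines the mean and SD (n = 3). Gadd45g lies lower in TG in both organs, with the TG livers between 2.21 and 3.63 and the CTR livers between 4.38 and 4.70, while Gadd45b differs by organ and Gadd45a is most spread in TG liver.

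Gadd45a did not separate the genotypes in either organ. In esophagus it was at 1.23, 1.1 and 1.45 in TG1, TG2 and TG3, against 1.22, 1.44 and 1.45 on CTR1, CTR2 and CTR3. The groups overlapped almost wholly, and the difference was -0.11 (SE 0.43). In liver it was at 2.20, 0.26 and 2.03 in TG1, TG2 and TG3, against 0.60, 1.24 and 0.85 on CTR1, CTR2 and CTR3. TG1 and TG3 lay above every CTR liver and TG2 below every one. The means were 1.5 ± 1.07 in TG and 0.90 ± 0.32 in CTR liver (SD, n = 3 each), and the difference was 0.60 (SE 0.42). The 2 livers with the lowest Gadd45a, TG2 and CTR1, were the 2 with low Per2. They also had the highest levels of the acute-phase gene Lcn2, at 3.90 in TG2 and 4.27 in CTR1 against -4.63 to -3.23 on the other livers. The metallothionein Mt2 was at 6.97 in TG2 and 6.02 in CTR1, against 0.93 to 2.17, and the cytokine-induced Socs3 at 2.70 and 3.62, against 0.47 to 0.93. The part of this state in the Gadd45a values was not tested. Leaving both out, which was tried only after the data had been seen, gave a liver difference of 1.07 for Gadd45a, -2.01 for Gadd45g and -0.24 for Gadd45b. The liver difference of Gadd45a was 1.22 without TG2, 0.25 without TG1, 0.33 without TG3 and 0.10 with array weights, so its size rests on single livers.

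Gadd45b, measured by 2 probes, overlapped between genotypes in esophagus on both. The brighter probe was at 3.06, 2.77 and 3.09 in TG1, TG2 and TG3, against 2.65, 2.61 and 2.98 on CTR1, CTR2 and CTR3, a difference of 0.23 (SE 0.40). The second probe was at 1.93, 1.20 and 1.77 on the TG arrays, against 1.24, 1.43 and 1.11 on the CTR arrays, a difference of 0.37 (SE 0.22). Both probes had 2 TG esophagi above all CTR esophagi and TG2 lower, among the CTR values. The brighter probe's difference was 0.013 with normexp background correction and quantile normalization, and within 0.001 of 0 with the slide as a fixed block.

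In liver both Gadd45b probes were dim, with signals of 80.4 to 239 and of 94.5 to 154, and they went different ways. The brighter probe was at -1.24, -2.21 and -2.30 in TG1, TG2 and TG3, against -3.02, -1.51 and -1.54 on CTR1, CTR2 and CTR3, a difference of 0.11 (SE 0.40). The second probe was at -2.37, -2.44 and -2.35 on the TG arrays, against -2.29, -2.30 and -1.77 on the CTR arrays, a difference of -0.27 (SE 0.22). Its TG values lay just below its CTR values without overlap, while those of the brighter probe overlapped. Over the 6 livers the probes correlated at 0.27, over the 6 esophagi at 0.57 and over all 12 arrays at 0.98, where the organs set the value. The brighter probe's liver difference was -0.39 without CTR1, -0.23 without TG1 and -0.17 with normexp and quantile normalization, so no direction is given for Gadd45b between TG and CTR livers.

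**Figure D2:**
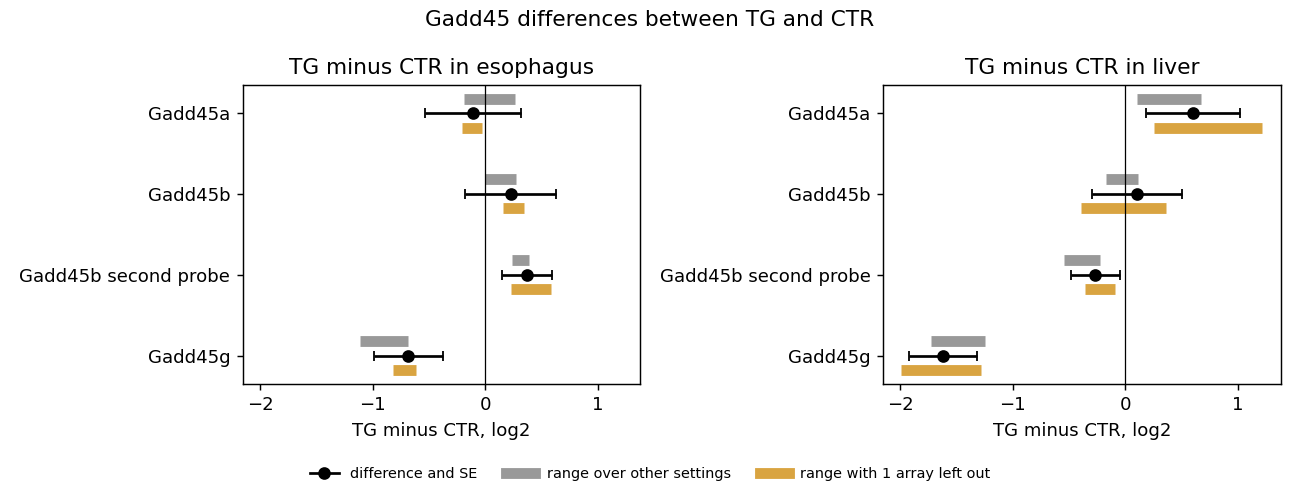
Differences between TG and CTR (log2) for the 4 Gadd45 probes in esophagus and in liver; points are the difference with its SE, grey bars the range over the other settings, and ochre bars the range with 1 array left out. Gadd45g stays below 0 throughout, from -1.11 to -0.61 in esophagus and from -1.99 to -1.25 in liver.

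Gadd45g kept its direction within the slides that held both genotypes of an organ, which gave only 1 pair of arrays per organ. On the slide with esophagi TG1 and CTR2 the difference was -0.95 for Gadd45g, -0.21 for Gadd45a and 0.45 for Gadd45b. On the slide with livers TG3 and CTR2 it was -2.17 for Gadd45g, 0.79 for Gadd45a and -0.79 for Gadd45b. Liver TG3 is the array that stood apart above, with 81.8% of its probes well above background and the lowest Gadd45g. With the slide as a fixed block Gadd45g was at -1.11 in esophagus and -1.72 in liver, and Gadd45a turned to 0.26 in esophagus. The fixed block takes slide effects in part from the other organ's arrays.

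The difference between genotypes was larger in liver than in esophagus for Gadd45g by 0.94 (SE 0.44), with TG minus CTR at -0.68 in esophagus and -1.62 in liver. The same quantity, esophagus minus liver, was -0.71 (SE 0.60) for Gadd45a, 0.12 (SE 0.57) for the brighter Gadd45b probe and 0.64 (SE 0.31) for the second. For the brighter Gadd45b probe it ran from -0.14, without liver CTR2, to 0.62, without liver CTR1. Without liver TG2 it was -1.33 for Gadd45a. For Gadd45g it ran from 0.60, without liver TG3, to 1.31, without liver TG2, and was 0.55 with array weights and 0.62 with the slide as a fixed block. Of 24438 genes tested for this difference between organs, 0 passed in limma, with 1188 at an unadjusted p under 0.05.

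**Figure D3:**
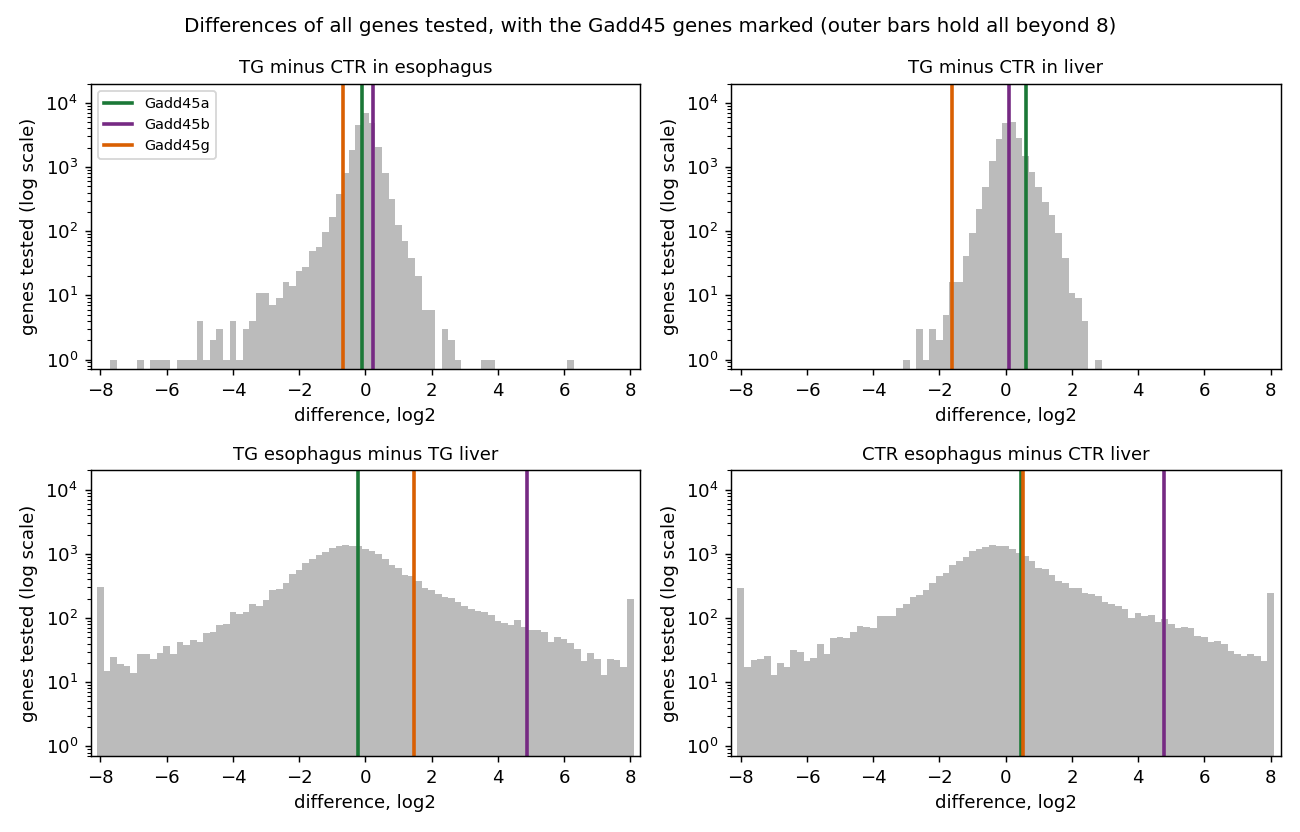
Number of genes tested (log scale) by difference (log2) for TG against CTR in each organ and for esophagus against liver in each genotype, with the 3 Gadd45 genes as vertical lines and all values beyond 8 in the outer bars. Gadd45g lies at the low edge of the liver genotype differences, at -1.62, and Gadd45b far to the right in both organ comparisons, at 4.89 in TG and 4.77 in CTR.

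Gadd45b had the largest difference between organs of the 3 genes. In TG mice the brighter probe averaged 2.98 ± 0.18 in esophagus and -1.92 ± 0.59 in liver (SD, n = 3 each), a difference of 4.89 (SE 0.40), or 29.7-fold higher in esophagus. In CTR mice it averaged 2.75 ± 0.21 in esophagus and -2.02 ± 0.86 in liver (SD, n = 3 each), a difference of 4.77 (SE 0.40), or 27.3-fold. The second probe gave smaller folds, 16.2 in TG and 10.4 in CTR mice. Esophagus and liver did not overlap on either probe in either genotype, as was so, with esophagus above liver, for 25.8% of the genes tested in TG and 30% of those tested in CTR mice, while 45.7% and 38.4% lay below without overlap.

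Within the animals, Gadd45b was higher in the esophagus of all 6, by 4.30, 4.99 and 5.39 in TG1, TG2 and TG3, and by 5.66, 4.12 and 4.53 in CTR1, CTR2 and CTR3. TG and CTR animals overlapped in this organ difference. On the slides that held both organs of a genotype, though not always of 1 animal, Gadd45b was higher in esophagus by 4.30 and 5.30 in TG and by 4.15 and 6.0 in CTR mice, and Gadd45g by 1.38 and 0.65 in TG and by 0.39 and 0.69 in CTR mice. The Gadd45g organ differences of TG and CTR overlapped in these slide pairs. Gadd45g was also higher in the esophagus of all 6, by 1.38, 0.92 and 2.07 in TG1, TG2 and TG3, against 0.29, 0.79 and 0.46 in CTR1, CTR2 and CTR3. Within animals, every TG value lay above every CTR value, which restates the larger genotype difference in liver. Gadd45a had no common direction, at -0.96, 0.83 and -0.58 in the TG animals, against 0.62, 0.21 and 0.59 in the CTR animals.

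**Figure D4:**
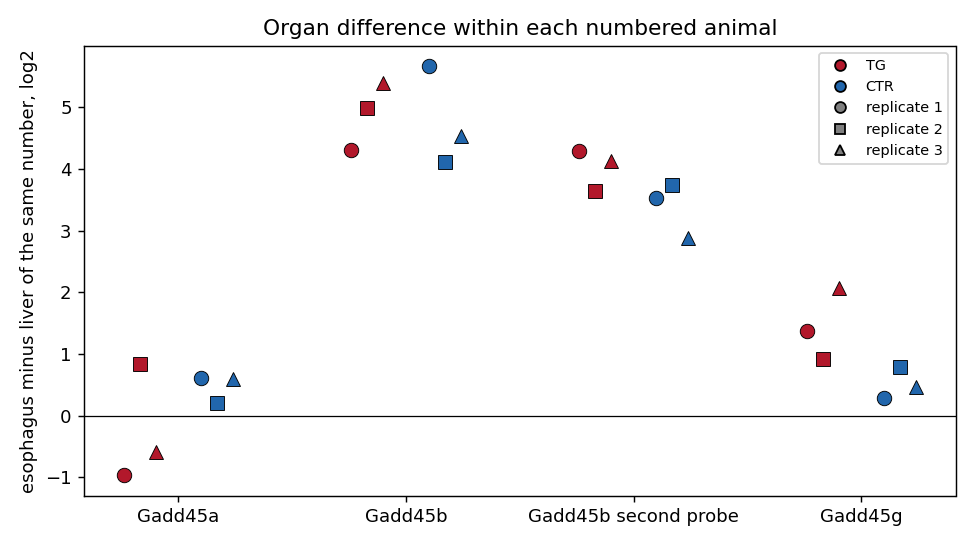
Esophagus minus liver (log2) of the 4 Gadd45 probes within each numbered animal, TG left of CTR, symbols giving the replicate. Gadd45b lies between 4.12 and 5.66 in all 6 animals on its brighter probe, Gadd45g between 0.92 and 2.07 in TG and between 0.29 and 0.79 in CTR animals, and Gadd45a on both sides of 0.

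Gadd45g averaged 1.45 (SE 0.31) higher in esophagus than in liver in TG and 0.52 (SE 0.31) in CTR mice. Scaling moved the size of this organ difference: it was 2.01 in TG and 1.23 in CTR mice after quantile normalization over the 12 arrays, and 2.01 and 1.30 with normexp. The median over all genes between the organs was -0.41 in TG and -0.19 in CTR mice, and relative to it Gadd45g was at 1.87 and 0.71 and the brighter Gadd45b probe at 5.31 and 4.96. By mean level Gadd45g ran from esophagus CTR (5.04) through liver CTR (4.52) and esophagus TG (4.35) to liver TG (2.90), and the middle pair overlapped. That middle order depends on the scaling: in the authors' deposited table of log2 values Gadd45g was at 14.25 to 14.64 on the TG esophagi and at 13.80 to 13.99 on the CTR livers, turned round and without overlap. Gadd45b ran from esophagus TG (2.98) and esophagus CTR (2.75) to liver TG (-1.92) and liver CTR (-2.02), with overlap within each organ. Gadd45a ran from liver TG (1.5), esophagus CTR (1.37) and esophagus TG (1.26) to liver CTR (0.90), and its TG livers spanned all the other groups.

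The members did not vary together. Over the 6 livers Gadd45a and Gadd45g correlated at -0.72, Gadd45a and Gadd45b at 0.46 and Gadd45b and Gadd45g at -0.06. Over the 6 esophagi these correlations were 0.42, 0.24 and -0.58. They are descriptions over 6 arrays of 2 genotypes that share the array scaling. The negative value of Gadd45a and Gadd45g in liver follows the TG livers, where TG1 and TG3 were high in Gadd45a and low in Gadd45g, and TG2 the reverse.

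Among the 10971 named genes above background on all arrays, those most like Gadd45g over the 12 arrays after removal of organ means were Fn1 (r = 0.92), Mrps23 (0.92), Klf9 (0.91), Jpt1 (0.89) and Sf3b3 (0.88). Fn1 encodes fibronectin, Mrps23 a protein of the mitochondrial ribosome, Klf9 a transcription factor induced by glucocorticoids, and Sf3b3 a splicing factor. Over the livers alone these 5 correlated with Gadd45g at 0.94 to 0.99. They were picked as the highest of 10971 over arrays that include these livers, so the liver values are no separate evidence. Over the esophagi Fn1 and Sf3b3 correlated at 0.68, Mrps23 at 0.60, Jpt1 at 0.27 and Klf9 at 0.001. Genes with high likeness to Gadd45a included Klhl12 (0.92), Samd8 (0.92), Vegfb (0.91) and Mpp4 (0.90), and Gadd45b was most like Gpi1 (0.93), G6pc (0.93), Htatip2 (0.92), Zfp276 (0.92) and Cyp39a1 (0.91). Vegfb encodes a growth factor, and Gpi1 and G6pc encode enzymes that handle glucose 6-phosphate. Over the esophagi the values named for Gadd45a ran from -0.18 (Vegfb) to 0.69 (Mpp4) and those for Gadd45b from 0.38 (G6pc) to 0.78 (Htatip2).

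The glucocorticoid and fasting list was set beside the family because its genes answer hormonal stress. Of 21 members tested in liver, 17 were lower in TG and 4 higher, with a median of -0.39 against 0.13 over all genes. Only 1 of the 21 had no overlap downward and 1 upward, against 2.81% and 8.57% of all genes tested in liver. As over all genes tested in liver, 0 passed in limma. Klf9 was at 1.87, 2.21 and 1.36 on livers TG1, TG2 and TG3, against 2.64, 2.67 and 2.71 on CTR1, CTR2 and CTR3. Its order among the TG livers matched that of Gadd45g, and its difference was -0.86 (SE 0.20). Klf9 was also among the genes most like Gadd45g of the 10971 compared, over arrays that include these livers. Its match with Gadd45g in liver is therefore no separate evidence, and over the esophagi the correlation was 0.001. Fkbp5, a cochaperone of the glucocorticoid receptor, was at -1.44, -2.36 and -1.37 on the TG livers, against -1.84, 0.52 and 1.19 on the CTR livers. CTR1 lay among the TG livers in Fkbp5, whereas in Gadd45g it lay with the other CTR livers. Tsc22d3, the glucocorticoid-induced leucine zipper, was at 3.28, 1.92 and 2.28 on the TG livers, against 1.58, 4.12 and 4.15 on the CTR livers. In esophagus Tsc22d3 was at 1.99, 2.29 and 2.45 on the TG arrays, against 3.19, 3.69 and 4.21 on the CTR arrays, with no overlap, and Klf9 overlapped fully. Of the 17 list genes tested there, 2 had no overlap downward and 2 upward, against 5.75% and 6.81% of all genes. The part of hormone or clock state in the Gadd45g values was not tested.

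**Figure D5:**
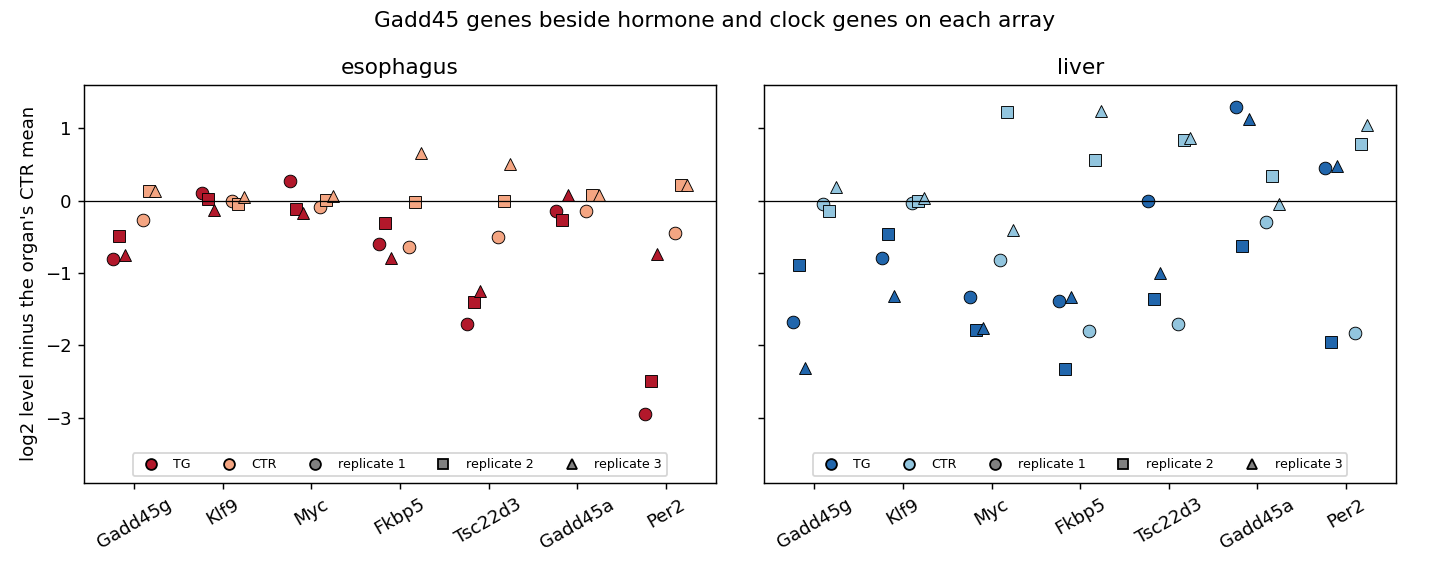
Levels (log2, minus the CTR mean of the organ) of Gadd45g and Gadd45a beside Klf9, Myc, Fkbp5, Tsc22d3 and Per2 on each array, TG left of CTR, symbols giving the replicate. In liver Klf9 and Myc are lower on all TG arrays, as Gadd45g is, while Per2 is low on TG2 and CTR1. Klf9 was among the genes most like Gadd45g over these arrays, so its match in liver is no separate evidence.

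Between genotypes 0 of 23208 genes passed in esophagus and 0 of 21247 in liver. The partners that Gadd45 proteins bind were no exception. Of 11 partners tested in liver, 5 were higher and 6 lower in TG, with a median of -0.0021, and 0 passed. Cdkn1a, the p21 inhibitor of cyclin-dependent kinases, was at -4.20, -1.73 and -3.26 on the TG livers, against -1.86, -1.14 and -2.29 on the CTR livers, a difference of -1.30 (SE 0.51) with overlap. In esophagus 9 of the 11 were higher and 2 lower in TG, with a median of 0.20, and 0 passed. Ccnb1, the cyclin B1 that Gadd45 proteins hold back with Cdk1, was at -2.35, -2.47 and -3.17 on the TG esophagi, against -4.48, -3.91 and -4.65 on the CTR esophagi. Its difference was 1.69 (SE 0.31) without overlap. Of the 11 partners, 2 had no overlap upward in esophagus, against 6.81% of all genes.

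Genes of the step from G2 to mitosis, the step at which Gadd45 proteins act, were mostly higher in TG esophagus without passing. Of 10 tested, 9 were higher and 1 lower, with a median of 0.94 against 0.0057 over all genes, and 5 had no overlap upward, against 6.81% of all genes tested in esophagus (8.57% in liver). The 1 without overlap downward was Wee1, the kinase that inhibits Cdk1, at -5.69, -5.15 and -4.44 on the TG esophagi, against -4.32, -3.32 and -3.66 on the CTR esophagi. Its order on the TG esophagi was that of the clock gene Per2. Among the livers Wee1 was lowest where Per2 was low, at -6.90 on TG2 and -7.44 on CTR1, against -3.23 to -2.73 on the others. The part of clock state in the Wee1 values was not tested. Ccnb1, counted above among the partners, was also 1 of the 5 without overlap upward here. Ccnb2 differed by 1.51 (SE 0.33), Plk1, a mitotic kinase, by 1.42 (SE 0.33) and Ccna2, cyclin A2, by 1.24 (SE 0.40). In liver 4 of 7 tested were higher and 3 lower, with a median of 0.12 against 0.13 over all genes. Cell type markers aside, none of the 197 list genes tested in esophagus and none of the 190 in liver passed in limma. That was so for every gene tested. Their smallest adjusted p in limma was 0.552 for Ccnb1 in esophagus and 0.580 for Dusp10 in liver.

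No known regulator of the family passed between genotypes, as no gene tested did. Of 22 upstream regulators tested in liver, 12 were higher and 10 lower in TG, with a median of 0.0094. Myc, a growth factor-induced transcription factor that represses Gadd45a, was at -1.01, -1.46 and -1.44 on the TG livers, against -0.50, 1.55 and -0.08 on the CTR livers, a difference of -1.63 (SE 0.42) without overlap. CTR2 alone stood high in Myc. Trp53, which encodes p53, differed by -0.36 (SE 0.19) in liver, without overlap, and by -0.32 (SE 0.19) in esophagus, with overlap. Myc and Trp53 were the 2 of the 22 without overlap in liver, both downward, against 2.81% of all genes. Of 22 regulators tested in esophagus, 12 were higher and 10 lower, with a median of 0.019, and Il1b, which encodes interleukin 1 beta, differed by 0.98 (SE 0.51).

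The targets of the pathways that induce the family were split in both directions. Of 26 p53 targets tested in liver, 15 were higher and 11 lower in TG, with a median of 0.04, and in esophagus 9 were higher and 17 lower, with a median of -0.05. Of 13 TGF-beta targets 9 were higher and 4 lower in liver, with a median of 0.22, and 4 higher and 9 lower in esophagus, with a median of -0.26. In esophagus 3 of the 13 had no overlap downward and 0 upward, against 5.75% and 6.81% of all genes. In liver 1 had no overlap downward and 2 upward, against 2.81% and 8.57%. Ccn2, connective tissue growth factor, was lower on all TG arrays of both organs, as Gadd45g was. Its differences were -0.66 (SE 0.22) in liver and -0.82 (SE 0.22) in esophagus. Over all genes 0.19% lay so in both organs, and Ccn2 was named for its small p within a list. Of 15 NF-kappaB targets 11 were higher and 4 lower in liver, with a median of 0.24, and of 14 in esophagus 5 were higher and 9 lower, with a median of -0.01. None of these passed, as no gene tested between genotypes did.

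No stress or immediate early gene passed between genotypes, which was so for all genes tested. Of 18 genes of the integrated stress response tested in liver, 13 were higher and 5 lower in TG, with a median of 0.19 against 0.13 over all genes. Phgdh, the first enzyme of serine synthesis, differed by 1.49 (SE 0.37), and Nupr1, a stress-induced nuclear protein, by 1.31 (SE 0.45). They were the 2 of the 18 without overlap, both upward, against 8.57% of all genes tested in liver. In esophagus 5 of 20 were higher and 15 lower, with a median of -0.19. Of the immediate early genes 14 of 29 were higher in liver (median -0.01) and 8 of 31 in esophagus (median -0.10), the other members being lower. For the p38 and JNK kinases with their phosphatases, downstream of the family, 5 were higher and 11 lower in liver, with a median of -0.16, and 10 higher and 6 lower in esophagus, with a median of 0.04. Dusp10, a phosphatase of p38 and JNK, differed by 0.82 (SE 0.20) in liver without overlap. Among the 16 tested there, 2 had no overlap upward and 1 downward, against 8.57% and 2.81% of all genes. For DNA demethylation and methylation 7 were higher and 2 lower in liver, with a median of 0.16, and 6 higher and 7 lower in esophagus, with a median of -0.03. Of the clock genes 5 were higher and 14 lower in liver, with a median of -0.14, and 6 higher and 15 lower in esophagus, with a median of -0.43. In esophagus 4 of these 21 clock genes had no overlap downward and 2 upward, against 5.75% and 6.81% of all genes. In liver 0 clock genes had no overlap in either direction. In the fasting and glucocorticoid list 8 were higher and 9 lower in esophagus, with a median of -0.00042. None passed.

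Between the organs, the immediate early genes stood on the side of Gadd45b. In TG mice 22 of 31 passed as higher in esophagus and 0 as lower, with a median of 1.49, and in CTR mice 21 passed as higher and 2 as lower, with a median of 1.83. Over all genes 63.7% passed in TG, 23.5% as higher and 40.3% as lower, and 62.7% in CTR mice, 26.7% as higher and 35.9% as lower, with medians of -0.41 and -0.19. Klf4, a factor of differentiating epithelium, was higher in esophagus by 6.77 (SE 0.26) in TG and 6.92 (SE 0.26) in CTR mice, and Klf6 by 3.83 (SE 0.19) and 4.14 (SE 0.19). Ier5 was higher by 3.07 (SE 0.21) in TG and Ier3 by 5.11 (SE 0.32) in CTR mice, and Ccn2 by 3.27 (SE 0.22) and 3.43 (SE 0.22).

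For the pathways that induce the family, the counts stand beside those of all genes. Of all genes, 23.5% passed as higher and 40.3% as lower in TG esophagus, and 26.7% and 35.9% in CTR esophagus. Among 26 p53 targets, 10 passed as higher and 7 as lower in TG esophagus, and 11 and 7 in CTR esophagus. Phlda3 was higher by 6.75 (SE 0.17) in TG and 6.63 (SE 0.17) in CTR mice. Of 15 NF-kappaB targets 3 passed as higher and 5 as lower in TG, and 6 and 5 in CTR mice, with Relb higher by 1.76 (SE 0.14) in TG and 2.01 (SE 0.14) in CTR mice. Of 13 TGF-beta targets 5 passed as higher and 4 as lower in TG, and 7 and 4 in CTR mice. Of 23 upstream regulators 4 passed as higher and 9 as lower in TG, and 6 and 9 in CTR mice, where Ppara, the fasting receptor of the liver, was at -4.90 (SE 0.22) in TG and -4.65 (SE 0.22) in CTR mice. Of the integrated stress response 7 of 20 passed as higher and 6 as lower in TG, and 8 and 5 in CTR mice.

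Of the partners, 5 of 11 passed as higher in TG esophagus than in TG liver and 1 as lower, and 3 and 1 in CTR mice. Cdkn1a was higher in esophagus by 5.62 (SE 0.52) in TG and 4.01 (SE 0.52) in CTR mice, and Gadd45gip1, which encodes a nuclear and mitochondrial protein that binds the family, was at -2.19 (SE 0.16) and -1.95 (SE 0.15). Of the G2 to mitosis genes 7 of 9 passed as higher in TG and 3 of 9 in CTR mice, with 0 lower in both, and Cdc25b, a phosphatase that activates Cdk1, was higher by 3.72 (SE 0.27) and 3.82 (SE 0.27). Of 16 genes of the p38 and JNK list 9 passed as higher and 1 as lower in TG, and 8 and 1 in CTR mice. Mapk13, a p38 kinase of epithelia, was higher by 6.09 (SE 0.44) in TG and 5.87 (SE 0.44) in CTR mice. Of the DNA demethylation list 5 of 13 passed as higher and 2 as lower in TG, and 6 and 3 in CTR mice; of the clock list 1 of 20 as higher and 3 as lower in TG, and 1 and 1 in CTR mice. The clock count changed with the settings, from 2 to 7 in TG and from 1 to 5 in CTR mice. Of the fasting and glucocorticoid list 3 of 20 passed as higher and 10 as lower in TG, and 3 of 21 and 12 in CTR mice. These organ counts compare whole organs extracted by different methods. Over all genes 23.5% passed as higher and 40.3% as lower in TG, and 26.7% and 35.9% in CTR mice.

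In esophagus, where Gadd45g was lower in TG, the median levels of heart muscle and leukocyte markers were lower on every TG array than on any CTR array. The median of 7 heart muscle markers was -0.25 to 0.09 on the TG and 0.48 to 4.54 on the CTR arrays, all 7 well above background on each. By mean difference 5 were lower in TG and 2 higher. The log2 of their summed level was 7.79 to 7.92 in TG and 7.83 to 8.50 in CTR. Sln alone, at 7.74 to 7.86 in TG, made up most of the TG sum. Nppa was at -3.28 to -3.10 in TG and 0.48 to 5.41 in CTR, and Tnni3 at -4.15 to -3.22 and -0.56 to 3.84. The median of 10 leukocyte markers was -2.51 to -1.57 in TG and -1.18 to -0.84 in CTR, all 10 well above background, with sums of 2.18 to 3.10 in TG and 3.10 to 3.31 in CTR. By mean difference 9 leukocyte markers were lower in TG and 1 higher. Taken singly, only 1 of the 10 had no overlap downward, against 5.75% of all genes tested in esophagus. Of 6 airway markers 4 to 6 were well above background in TG and 5 to 6 in CTR. Their median was -3.99 to 3.42 in TG and 2.32 to 5.56 in CTR, and all 5 tested were lower in TG. The airway sums were 6.10 to 7.41 in TG and 6.88 to 8.57 in CTR. Cyp2f2, a marker also high in liver, was at 6.09 on TG1 and held most of the sum there. For 8 fat markers, 7 to 8 well above background in TG and 8 in CTR, the median was -0.35 to 2.75 in TG and 2.45 to 3.12 in CTR. All 8 were lower in TG, and the fat sums were 5.35 to 7.39 in TG and 6.61 to 7.72 in CTR. Hepatocyte markers, with 4 to 6 of 7 well above background in TG and 6 in CTR esophagus, had sums of -0.20 to 1.40 in TG and 0.85 to 1.35 in CTR. Their part in the esophagus result was not tested. The markers with the smallest adjusted p in limma for TG against CTR esophagus were Nppa of heart muscle, at -6.49 (adjusted p = 0.247), Alb of hepatocytes, at -3.04 (adjusted p = 0.300), and Tnni3 of heart muscle, at -5.33 (adjusted p = 0.380), so none passed. In liver the hepatocyte sums were 11.2 to 11.3 in TG and 11.1 to 11.2 in CTR, with all 7 well above background. The leukocyte sums there were 2.03 to 3.58 in TG and 2.54 to 3.44 in CTR, with 8 to 10 of 10 markers well above background in TG and 5 to 9 in CTR.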

How the data were processed

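Per the file headers, the deposited scanner files hold spot intensity on a linear scale from Agilent Feature Extraction 10.7.1.1, background-subtracted within each array and not scaled between arrays. A second deposited table holds log2 values for these arrays. The submitters' processing notes name limma but no version. The columns of that table share a median of 7.27, are not centred on 0, and correlate at over 0.999 with normexp and quantile values of their own array. No source used here states its background correction. Control spots and 1311 outlier spots were left out, no spot was saturated, and spots of a probe were averaged. Accessions were matched to the RefSeq genes of GRCm38.p6, naming 23374 of 41174 probes; the other 17800 were tested under their identifiers. The processed signal was put on the log2 scale and each array's 75th percentile subtracted. The brightest probe stood for a gene, which entered a test if 1 of the groups compared had it well above background on each of its 3 arrays.

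Differences were fitted with limma 3.58.1 in R 4.3.3 (lmFit, eBayes) over the 12 arrays and 4 groups together, without a block, which left 8 residual degrees of freedom, with Benjamini-Hochberg adjustment at 0.05 over all genes tested, two-sided. The procedure was tested on simulated data. The SE of a difference comes from this fit. Normexp, with an offset of 50, used the median spot signal, since the files used here hold no mean signal column. Alternatives were other backgrounds, scalings, filters, probes, slide and replicate blocks, array weights, the authors' table and leaving out arrays. The members and the lists, of binding partners, upstream regulators, pathway targets and cell type markers, were chosen with earlier results of these data known. Named are all members, Nanog, up to 4 genes of a list with the smallest p, and for each member the 5 genes with the highest correlation, of which 1 is not reported here; values of Tsc22d3, Per2, Trp53, Myc, Lcn2, Mt2, Socs3 and Wee1 on single arrays were chosen after they were seen, as was leaving out livers TG2 and CTR1 together.

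Sample numbers in the labels link both organs of an animal, and organ contrasts were also fitted with the animal as a block. Deviations from the group means correlated between the organs of an animal at -0.04 to 0.19. Promoters were searched with pandas 2.3.3, and figures drawn with matplotlib 3.10.9, in Python 3.11.15. The number of arrays limits the precision.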

Additional observations from a re-analysis of the deposited data

How the results depend on the processing

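Gadd45g kept its sign for TG against CTR under every alternative run, from -1.11 to -0.68 in esophagus and from -1.72 to -1.25 in liver, and with single arrays left out from -0.82 to -0.61 and from -1.99 to -1.28. Of 258 differences of members under the other alternatives, 23 moved by more than the spread between replicates, as did 1 of 240 with an array left out. A fixed slide block put the esophagus difference of Gadd45a at 0.26, Gadd45b at -2.77e-05 and Gadd45g at -1.11. Gadd45b was at 0.013 there with normexp and in the authors' table. Between CTR organs Gadd45g was at 1.30 with normexp and in the authors' table, 1.23 after quantile normalization over 12 arrays and 0.81 with the percentile over detected probes, where Gadd45a was at 0.77. Between TG organs Gadd45g was at 2.01 with normexp, 2.01 with quantile and 2.00 in the authors' table, and Gadd45b at 5.35 with quantile. With 1 array left out, the genotype difference in esophagus minus that in liver ran from -1.33 to -0.36 for Gadd45a. The cause of these shifts was not tested.

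The count of genes called for TG against CTR in esophagus, 0, was 2 with normexp, the authors' table or the common floor, and 1 with either quantile setting, the slide as a fixed block, array weights or only the groups compared. It ran from 0 to 7 with arrays left out, highest without esophagus TG2. In liver it was 0 under all other alternatives, from 0 to 18 with single arrays left out, highest without liver TG2, and 30 without both TG2 and CTR1, a setting added after seeing the data. For the difference of the genotype effect between organs 1 gene was called with normexp, either quantile setting, the authors' table or the common floor, and 0 to 1 with arrays left out. Of 804 counts of called list members, 8 moved by over 1.5 times, all of them for the clock list between organs.

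Same-numbered TG and CTR samples are different animals, with deviations correlating at -0.40 to 0.15, so their numbers do not pair them. With that replicate block 0 genes were called in either organ, as without it, and Gadd45g stayed at -0.68 and -1.62. With the animal as a fixed block 14816 genes were called between TG organs and 14277 between CTR organs, against 15234 and 14640, and no other call named here changed. That difference of effects between organs was not refitted on only the groups compared, since it uses all 4.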
